A study of Homo sapiens with 3 samples.

Results

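A set of 10 genes that make, store and recover catecholamines was followed in single-cell RNA counts of a neuroblastoma line at 3 stages of resistance to an ALK inhibitor. They were taken by name from the gene rows, and all 10 of the 10 names were found among 32738 genes. They are TH (ENSG00000180176), DDC (ENSG00000132437), DBH (ENSG00000123454) and PNMT (ENSG00000141744), the enzymes, GCH1 (ENSG00000131979) and GCHFR (ENSG00000137880), which set the supply of an enzyme cofactor, SLC18A1 (ENSG00000036565) and SLC18A2 (ENSG00000165646), the vesicular monoamine transporters, SLC6A2 (ENSG00000103546), the noradrenaline transporter of the plasma membrane, and CYB561 (ENSG00000008283), a cytochrome of the vesicle membrane. The sensitive library held Kelly cells grown in DMSO, the solvent, the intermediate resistant library Kelly cells kept under TAE684 at 500 nM. The fully resistant library held Kelly cells kept under TAE684 at 1 µM. Kelly is an established neuroblastoma line of human origin that carries an amplified MYCN gene and an activating mutation of ALK, and TAE684 inhibits the ALK kinase. Each state had 1 library of 10x Genomics 3′ v2 chemistry, so n = 1 per group. Resistance, drug dose and differences between cultures cannot be told apart. No test between states was possible, and every interval below covers counting error only.

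Sympathetic neurons and chromaffin cells, the tissue from which neuroblastoma arises, make noradrenaline in a chain. TH turns tyrosine into L-DOPA, DDC turns L-DOPA into dopamine, and dopamine must be carried into vesicles by SLC18A1 or SLC18A2 because DBH, which turns it into noradrenaline, works inside them. Released noradrenaline is taken back into the cell by SLC6A2, and urinary breakdown products of catecholamines are used to diagnose neuroblastoma.

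The sensitive, intermediate resistant and fully resistant libraries held 5415, 6288 and 6331 cells, with medians of 16008, 15660.5 and 16014 unique molecular identifiers (UMIs, counts of distinct RNA molecules) per cell. The summed UMIs were 95119772, 102449567 and 106163582 in the same order. Pairs of libraries shared 38 to 62 cell barcodes, against 46.2 to 54.0 from random draws of the barcode list. All 10 sympathetic neuroblast markers exceeded 1 CPM (UMIs of a gene per 1000000 UMIs of its library) in every library. Summed levels of the fibroblast, leukocyte, endothelial and epithelial lists were at most 19.8 CPM. The Schwann cell list was higher in the fully resistant library, with sums of 2.95, 6.29 and 91.2 CPM in the sensitive, intermediate resistant and fully resistant libraries and 1, 2 and 3 of its 6 markers over 1 CPM. Its defining genes SOX10 (0.0188 CPM) and S100B (0.0565 CPM) were near 0 in the fully resistant library, and the part of the other markers in the results was not tested. Since the cells are all of 1 line, no cell type that should lack the genes was present to set a background. From barcodes of 10 to 100 UMIs, free RNA could have added at most 1.25 CPM to any of the 10 genes, and each level was at least 71.4 times its own limit.

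In fully resistant cells the enzymes TH, DDC and DBH and the cofactor genes were higher than in sensitive cells, while both vesicular transporters, the noradrenaline transporter and CYB561 were lower. Calls rest on size, not on a test, and needed 5 CPM or more in the library with the higher level and a ratio of at least 2. Of the 10 genes, 9 reached that level between the fully resistant and sensitive libraries, 5 were called higher (TH, DDC, DBH, GCH1 and GCHFR), 4 were called lower (SLC18A1, SLC18A2, SLC6A2 and CYB561), and PNMT was too low to be called. Among 9800 genes at that level, 6.73% were called higher and 7.33% lower. The median log2 ratio was 1.18 over the 9 genes and 0.08 over all genes at that level. The 9 genes split to both sides, so their median is the value of DDC and does not describe a shift of the set. In intermediate resistant over sensitive cells, 8 of the 10 reached the level, 4 were called higher (TH, DDC, DBH and SLC18A1), CYB561 was called lower, and GCHFR, SLC18A2 and SLC6A2 fell in neither class. The same rule called 2.38% of 9529 genes higher and 4.81% lower. The median log2 ratio was 0.76 over the 8 genes and -0.08 over all genes. In fully over intermediate resistant cells, GCH1 and GCHFR were called higher, SLC18A1, SLC18A2, SLC6A2 and CYB561 were called lower, and TH, DDC and DBH fell in neither class, against 5.71% of 9614 genes higher and 3.91% lower. The last comparison depends on scaling for genes at large. TMM scaling moved the median log2 ratio of all genes there from 0.15 to 0.00, and the calls from 549 higher and 376 lower to 437 higher and 493 lower, while the calls of the 10 genes stayed as they were. The comparisons share libraries, so their counts are not independent.

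**Figure D1:**
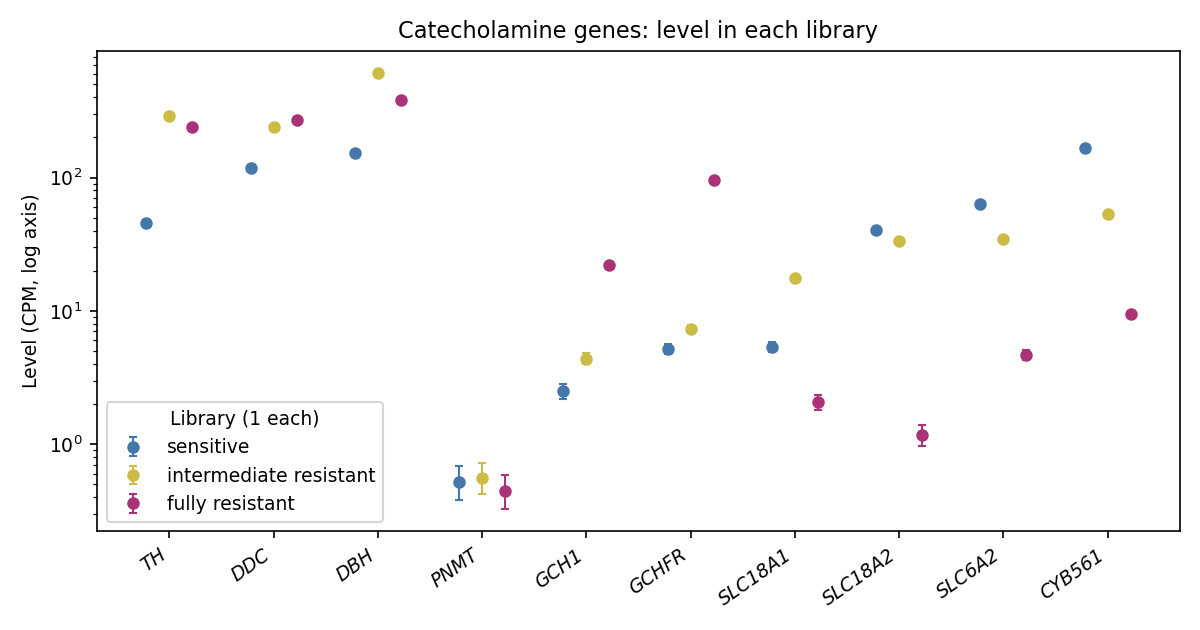
Level of each of the 10 genes in the sensitive, intermediate resistant and fully resistant libraries, as CPM (log axis), 1 library per state, with bars for the exact Poisson 95% interval, which is often narrower than the point. TH, DDC and DBH lie above their sensitive level in both resistant libraries, GCHFR climbs to 96.0 CPM in the fully resistant library only, and SLC18A2 drops there to 1.17 CPM.

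TH, the rate-limiting enzyme, was measured at 45.7 CPM (44.3 to 47.0) in sensitive, 291.5 CPM (288 to 295) in intermediate resistant and 238 CPM (235 to 241) in fully resistant cells, from 4344, 29864 and 25230 UMIs. Both resistant libraries lay far above the sensitive one. The ratio was 5.20 (5.04 to 5.38) for fully resistant over sensitive and 6.38 (6.18 to 6.59) for intermediate resistant over sensitive cells. TH ranked 57 from the top of 9529 genes for intermediate resistant and 205 of 9800 for fully resistant over sensitive cells. Between the resistant libraries the ratio was 0.815 (0.802 to 0.829) for fully over intermediate resistant cells, under the 2-fold limit.

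DDC, the decarboxylase, had 119 CPM in sensitive, 239 CPM in intermediate resistant and 269 CPM in fully resistant cells. Its ratio was 2.26 (2.21 to 2.31) for fully resistant over sensitive cells. The intermediate resistant ratio of 2.01 (1.97 to 2.06) sat at the 2-fold limit, and its log2 value of 1.01 became 0.996 when only cells of at least 10000 UMIs were kept, which ended the call. DDC overlaps FIGNL1 on the same strand, which was measured at 20.9, 21.0 and 27.4 CPM in the 3 states, far under DDC. Between the resistant libraries DDC had no direction, at a log2 ratio of 0.17 that TMM scaling took to 0.03.

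DBH was measured at 153 CPM (150.2 to 155) in sensitive, 609 CPM (604 to 614) in intermediate resistant and 380.0 CPM (376 to 384) in fully resistant cells. DBH stood highest in the intermediate resistant library. The ratio was 2.49 (2.44 to 2.54) for fully resistant and 3.99 (3.92 to 4.06) for intermediate resistant over sensitive cells. Fully over intermediate resistant cells gave a ratio of 0.624 (0.616 to 0.632), which did not reach 2-fold. The antisense transcript DBH-AS1 was at 0.147, 0.351 and 0.170 CPM in the 3 states. PNMT, which turns noradrenaline into adrenaline, had 49, 57 and 47 UMIs in sensitive, intermediate resistant and fully resistant cells, or 0.515, 0.556 and 0.443 CPM. Its ratio was 0.859 (0.564 to 1.31) for fully resistant over sensitive cells, an interval that includes 1 and runs from 1.77-fold lower to 1.31-fold higher.

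The promoter of DBH is shown because it holds, close together, letters of the cAMP response element and of the homeodomain core, and because the gene was called higher together with TH and DDC. The 250 bases before the start of transcription, chr9:133636113-133636362 on the plus strand of GRCh38.p14, come from RefSeq and not from these cells. The cAMP response element core was searched as TGACGTC, the homeodomain core as ATTA and the GC box as GGGCGG. Each was searched on both strands, no match of 1 motif overlapped another motif, and capitals mark a match.
DBH: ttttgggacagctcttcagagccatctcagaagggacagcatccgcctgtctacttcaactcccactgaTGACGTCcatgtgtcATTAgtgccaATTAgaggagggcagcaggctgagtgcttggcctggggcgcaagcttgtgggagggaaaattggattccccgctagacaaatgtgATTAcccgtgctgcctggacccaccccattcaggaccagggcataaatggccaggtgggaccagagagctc
It holds 1 cAMP response element core at base -181, counted from the start site, and 3 homeodomain cores at -166, -156 and -71. The cAMP response element core occurs in 3.12% of 35116 RefSeq promoters of this length and the homeodomain core in 47.4%. A match describes letters only and no binding was measured. TH, PNMT, GCH1, SLC18A1 and SLC6A2 had no entry in the promoter table used here, and DDC had 2 entries and CYB561 had 4.

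GCH1 and GCHFR control tetrahydrobiopterin, the cofactor that TH needs. GCH1, GTP cyclohydrolase 1, makes its first intermediate, and GCHFR is the feedback regulator that binds and inhibits GCH1. GCH1 was at 2.49 CPM in sensitive, 4.38 CPM in intermediate resistant and 22.0 CPM in fully resistant cells. The fully resistant library was the only one above 5 CPM. Its ratio was 8.84 (7.73 to 10.1) over sensitive cells and 5.02 (4.54 to 5.57) over intermediate resistant cells. In intermediate resistant over sensitive cells the ratio was 1.76 at a level too low to be called.

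GCHFR had 5.18 CPM (4.74 to 5.66) in sensitive, 7.35 CPM (6.83 to 7.89) in intermediate resistant and 96.0 CPM (94.1 to 97.8) in fully resistant cells. The fully resistant ratio was 18.5 (16.9 to 20.3) over sensitive and 13.1 (12.1 to 14.1) over intermediate resistant cells, rank 88 of 9800 and rank 76 of 9614 from the top. Per UMI of GCH1 there were 2.08 UMIs of GCHFR in sensitive, 1.68 in intermediate resistant and 4.36 in fully resistant cells. The fully resistant library stood apart. This ratio of UMIs of 2 genes within a library needs no scaling between libraries. GCHFR overlaps DNAJC17 on the opposite strand, which was at 7.24, 7.26 and 5.52 CPM, and whether counting used strand is not given in the sources used here. The other enzymes of the cofactor (7 genes, among them PTS, SPR and QDPR) had no member called in any comparison, with log2 ratios of -0.57 to 0.66 for fully resistant over sensitive cells.

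The promoter of GCHFR is shown because the gene had the highest ratio of the 10 for fully resistant over sensitive cells. The RefSeq sequence is chr15:40763818-40764067 on the plus strand of GRCh38.p14, and capitals mark the GC boxes, 1 on the reverse strand and 2 adjoining ones on the forward strand.
GCHFR: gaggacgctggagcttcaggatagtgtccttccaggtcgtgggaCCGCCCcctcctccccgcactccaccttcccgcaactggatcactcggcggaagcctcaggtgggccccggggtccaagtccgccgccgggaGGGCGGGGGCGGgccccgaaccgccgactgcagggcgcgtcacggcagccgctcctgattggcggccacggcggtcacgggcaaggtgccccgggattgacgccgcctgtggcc
GC boxes lie at -206, -114 and -108. Among RefSeq promoters of this length, 42.6% hold at least 1.

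**Figure D2:**
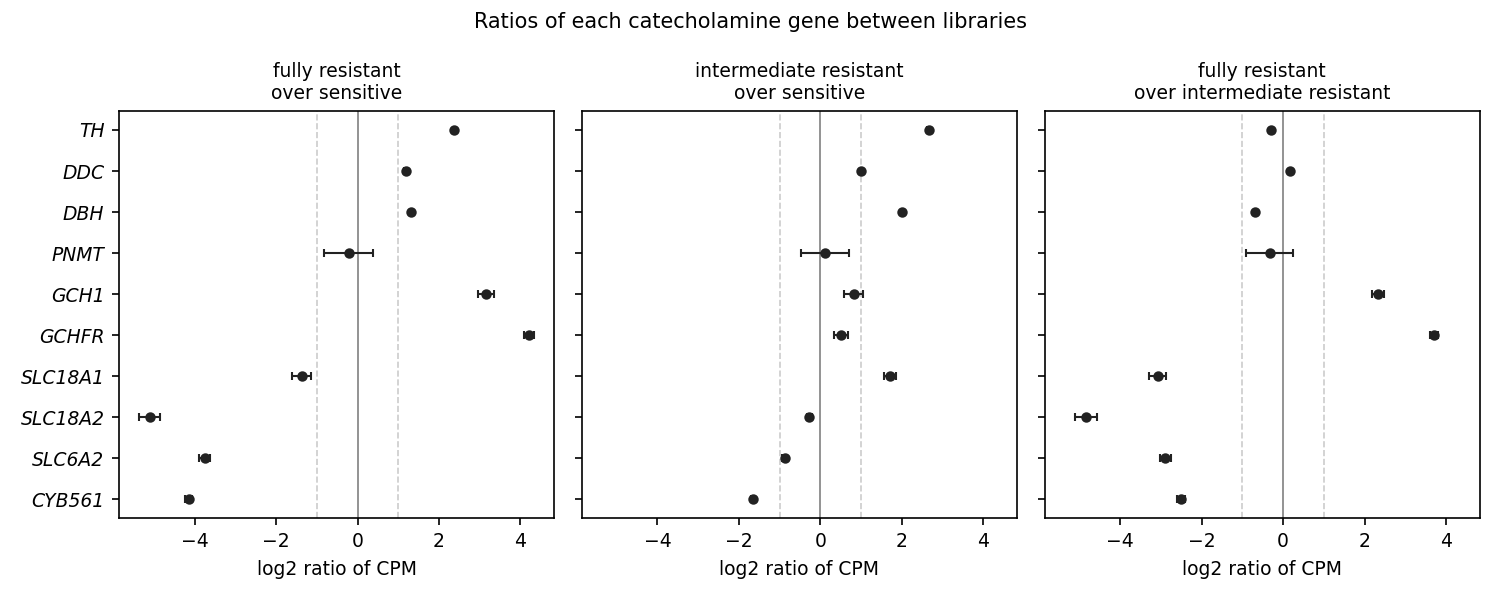
Log2 ratio of CPM for each of the 10 genes, for fully resistant over sensitive, intermediate resistant over sensitive and fully over intermediate resistant libraries (1 library per state), with exact conditional Poisson 95% intervals and dashed lines at 2-fold. The cofactor genes and the transport genes separate on either side in the fully resistant comparison with sensitive cells, at log2 values of 4.21 for GCHFR and -5.10 for SLC18A2.

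SLC18A2, the vesicular transporter VMAT2 of sympathetic neurons, was at 40.2 CPM (38.9 to 41.5) in sensitive, 33.3 CPM (32.2 to 34.5) in intermediate resistant and 1.17 CPM (0.971 to 1.39) in fully resistant cells, from 3821, 3415 and 124 UMIs. The fully resistant library stood far below the other 2. It was 34.4-fold lower (28.8 to 41.5) in fully resistant than in sensitive cells and 28.5-fold lower than in intermediate resistant cells. It ranked 46 from the lowest of 9800 genes. In intermediate resistant over sensitive cells the ratio was 0.830 (0.792 to 0.869), under the limit for a call. PDZD8 overlaps SLC18A2 on the opposite strand, and had 14.4, 11.7 and 9.49 CPM.

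SLC18A1, the other vesicular transporter, VMAT1, typical of neuroendocrine cells, was at 5.33 CPM (4.88 to 5.81) in sensitive, 17.5 CPM (16.7 to 18.3) in intermediate resistant and 2.06 CPM (1.80 to 2.35) in fully resistant cells. It was highest in the intermediate resistant library, and lowest in the fully resistant one. The ratio was 3.28 (2.97 to 3.63) for intermediate resistant over sensitive cells, while in fully resistant cells it was 2.58-fold lower (2.20 to 3.04) than in sensitive cells and 8.48-fold lower than in intermediate resistant cells. These calls ended when a level of 20 CPM was asked for. Both transporters together made 45.5 CPM in sensitive, 50.8 CPM in intermediate resistant and 3.23 CPM in fully resistant cells. SLC18A1's share of that sum was 11.7% (10.8 to 12.7, Clopper-Pearson) in sensitive, 34.4% (33.1 to 35.7) in intermediate resistant and 63.8% (58.5 to 68.9) in fully resistant cells.

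The promoter of SLC18A2 is shown because the gene had the lowest ratio of the 10 for fully resistant over sensitive cells. The RefSeq sequence is chr10:117240864-117241113 on the plus strand of GRCh38.p14, with GC boxes and the cAMP response element core in capitals.
SLC18A2: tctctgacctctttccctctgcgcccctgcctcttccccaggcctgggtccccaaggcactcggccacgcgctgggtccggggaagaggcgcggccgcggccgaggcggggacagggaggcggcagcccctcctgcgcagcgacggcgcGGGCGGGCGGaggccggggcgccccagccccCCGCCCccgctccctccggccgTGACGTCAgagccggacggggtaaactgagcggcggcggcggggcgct
The cAMP response element core matched on both strands near the end, at -48 and -47, as 1 palindrome, and the 3 GC boxes lie at -101, -97 and -70, the first pair overlapping. This core was found in the printed promoters of both DBH and SLC18A2, and its part in their levels was not tested.

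SLC6A2 had 63.4 CPM (61.8 to 65.0) in sensitive, 34.7 CPM (33.5 to 35.8) in intermediate resistant and 4.68 CPM (4.28 to 5.11) in fully resistant cells, a stepwise order with no overlap of the intervals. It was 13.5-fold lower (12.4 to 14.9) in fully resistant than in sensitive cells and 7.41-fold lower than in intermediate resistant cells. The intermediate resistant ratio over sensitive cells was 0.547 (0.524 to 0.570), short of a call at 2-fold, and reached one at 1.5-fold.

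CYB561 passes electrons across the vesicle membrane to regenerate ascorbate, which DBH consumes. It was at 167 CPM (165 to 169.9) in sensitive, 53.3 CPM (51.9 to 54.8) in intermediate resistant and 9.42 CPM (8.84 to 10.0) in fully resistant cells. It was 17.8-fold lower (16.7 to 19.0) in fully resistant and 3.14-fold lower (3.04 to 3.24) in intermediate resistant than in sensitive cells. Between the resistant libraries it was 5.66-fold lower in the fully resistant one. CYB561 was the only one of the 10 genes called lower in both resistant libraries against sensitive cells.

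Within a library, ratios of UMIs set the RNA of the enzymes against that of SLC18A2, CYB561 and SLC6A2. There were 3.80 UMIs of DBH per UMI of SLC18A2 in sensitive, 18.3 in intermediate resistant and 325 in fully resistant cells. DBH per CYB561 was 0.912, 11.4 and 40.3 in the same order, and TH per SLC6A2 was 0.720, 8.41 and 50.8. All 3 ratios climbed from the sensitive through the intermediate to the fully resistant library. TH per DBH was 0.299, 0.479 and 0.625. TH per DDC was 0.384, 1.22 and 0.884, highest in the intermediate resistant library.

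Levels averaged over a library do not say how many cells carried a gene, so each cell was thinned to 5000 UMIs, which all cells reach. In sensitive, intermediate resistant and fully resistant cells in turn, TH was then detected in 17.5%, 64.0% and 41.2%, and without thinning in 41.5%, 86.5% and 60.2%. DBH was detected in 44.5%, 87.6% and 62.6% and DDC in 40.7%, 65.1% and 65.0%. The fully resistant library thus had its TH in fewer cells than the intermediate resistant library had. Its TH counts were also more uneven than those of the intermediate resistant library. At the thinned depth the variance over the mean for TH was 1.29 in sensitive, 2.10 in intermediate resistant and 3.99 in fully resistant cells, where 1 is what random sampling gives. The 10% of cells with most TH held 55.5% of thinned TH UMIs in fully resistant and 36.8% in intermediate resistant cells. Cells with at least 5 thinned TH UMIs made up 7.41% of fully resistant and 6.31% of intermediate resistant cells, against 0 of 5415 sensitive cells, which allows a share of up to 0.0554%.

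**Figure D3:**
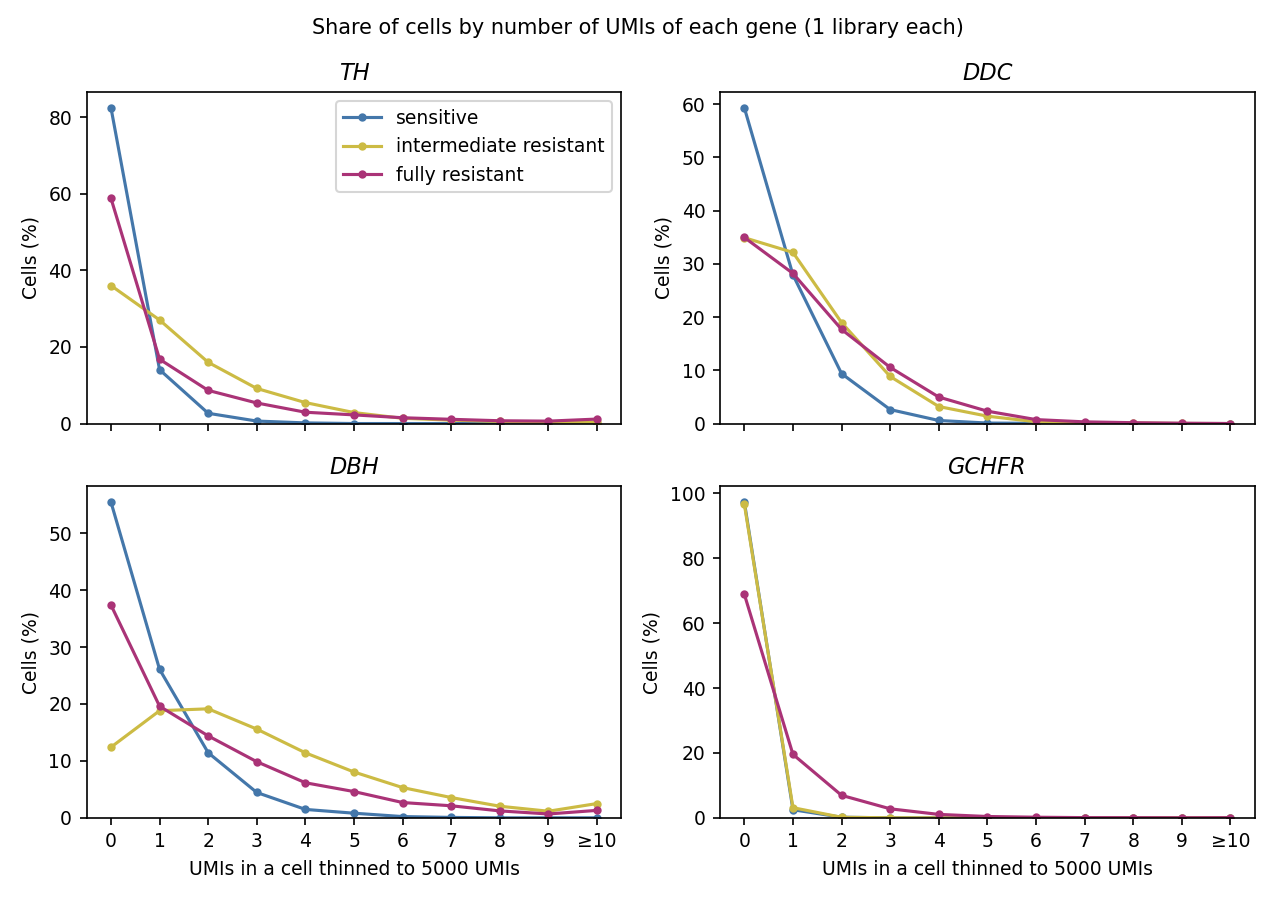
Share of cells (percent) by the number of thinned UMIs per cell for TH, DDC, DBH and GCHFR, 1 panel per gene, cells thinned to 5000 UMIs, 1 line per library. For TH, fully resistant cells combine a high share at 0 with a long right side, the sensitive cells end at 4 UMIs, and the intermediate resistant cells have the lowest share at 0.

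At the same depth GCHFR was found in 2.68%, 3.34% and 31.1% of sensitive, intermediate resistant and fully resistant cells, and GCH1 in 1.40%, 2.32% and 9.54% in that order. Both were found most often in the fully resistant library. SLC18A2 was found in 17.1%, 15.2% and 0.442%, SLC6A2 in 27.1%, 15.4% and 2.45% and CYB561 in 50.2%, 22.1% and 4.42% of the cells of the 3 states. In fully resistant cells SLC18A2, SLC6A2 and CYB561 were thus found in fewer cells. Random sampling at their mean counts there would give 0.441%, 2.50% and 4.88%. The shares therefore mostly restate the lower levels and are not a separate observation. SLC18A1 was found in 2.66%, 8.03% and 0.916% of cells. Without thinning, SLC18A2 was found in 44.3%, 35.1% and 1.80% of cells and GCHFR in 7.63%, 9.54% and 57.3%. PNMT was found in at most 0.351% of cells.

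Cells with both genes of a pair were counted against the product of the single shares, at the thinned depth. A pair was read where at least 20 cells were expected, which held for 31 of 45 pairs in sensitive, 33 in intermediate resistant and 22 in fully resistant cells. The ratio of counted to expected cells had an interval above 1 for 8, 8 and 11 of them, and below 1 for 1, 0 and 1. The enzymes TH, DDC and DBH were found together more often than the products gave. TH and DBH were together in 569 sensitive cells (423 expected, ratio 1.34), in 3661 intermediate resistant cells (3523 expected, ratio 1.04) and in 2224 fully resistant cells (1633 expected, ratio 1.36, 1.32 to 1.41). The Pearson correlation of log2(count + 1) of TH and DBH was 0.16 over the 5415 sensitive, 0.27 over the 6288 intermediate resistant and 0.54 over the 6331 fully resistant cells. All cells of a state share 1 library, so these values are descriptions. TH with DDC gave 0.10, 0.17 and 0.34, and DDC with DBH gave 0.17, 0.21 and 0.40. The values grew with depth, to 0.64 for TH and DBH in fully resistant cells at 10000 UMIs.

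**Figure D4:**
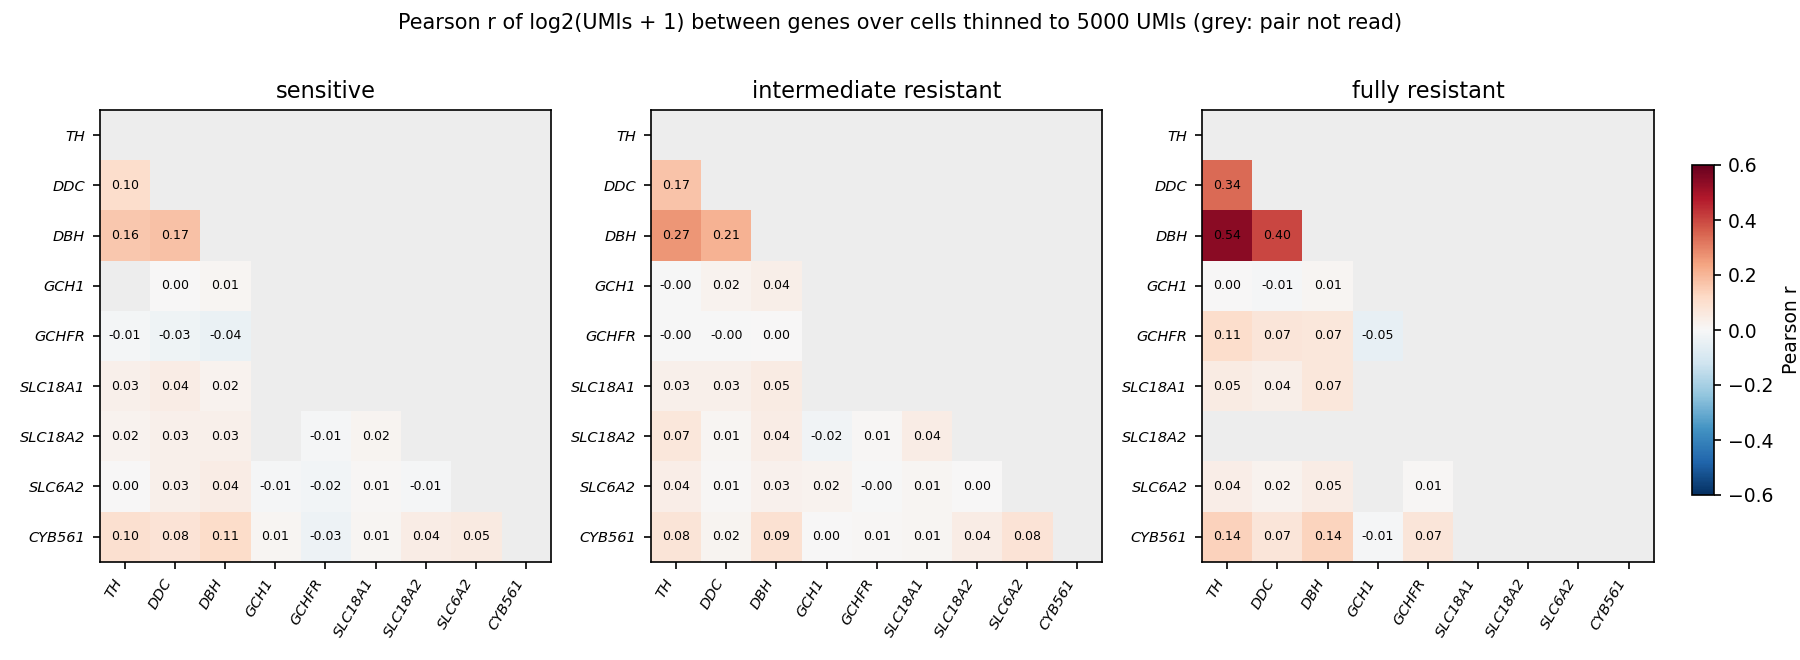
Pearson correlation of log2(count + 1) over the cells of each library for pairs of the genes, at 5000 UMIs per cell, 1 panel per library; pairs with under 20 expected cells are grey. DBH with TH and with DDC has the highest values in every library, up to 0.54 for TH and DBH in fully resistant cells, and GCH1 with GCHFR is at -0.05 there.

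The cofactor genes were not found together more often than the products gave. GCH1 and GCHFR were together in 151 fully resistant cells where 188 were expected, a ratio of 0.804 (0.682 to 0.941), and their correlation was -0.05, too weak to read in such sparse counts. TH and GCH1 were together in 248 cells where 249 were expected. CYB561, though low in fully resistant cells, was found together with TH in 177 cells (115 expected, ratio 1.54, 1.32 to 1.77) and with GCHFR in 125 cells (87.1 expected, ratio 1.44, 1.20 to 1.71).

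TH, DDC and DBH together were found in 5.61%, 41.0% and 29.2% of sensitive, intermediate resistant and fully resistant cells, set beside 3.18%, 36.5% and 16.8% from the product of the single shares. None of the 3 was found in 32.4%, 3.37% and 17.8% of the cells of the 3 states, above the products of 27.1%, 1.56% and 7.69%. The fully resistant library thus had the widest gap from the products in percentage points, in cells with all 3 enzymes as well as in cells with none. Such gaps can grow with the shares themselves. Ratios of counted to expected cells were close in sensitive and fully resistant cells. They were 1.34 and 1.36 for TH with DBH, 1.21 and 1.24 for TH with DDC, and 1.19 and 1.17 for DDC with DBH. Of the cells with all 3 enzymes, a UMI of SLC18A1 or SLC18A2 was found in 70 of 304 (23.0%) in the sensitive library and 611 of 2578 (23.7%) in the intermediate resistant library. Among fully resistant cells it was found in 36 of 1850 (1.95%, 1.37 to 2.68), and in 48 of the other 4481 (1.07%, 0.791 to 1.42). SLC6A2 was found in 28.3%, 16.9% and 2.97% of the cells with all 3 enzymes in the 3 states, and in 2.23% of the other fully resistant cells. GCHFR was found in 36.5% of the fully resistant cells with all 3 enzymes and in 28.9% of the other fully resistant cells. In the fully resistant library the transporters were thus rarely detected in the cells with all 3 enzymes as well. They were not rarer there than in the other cells of that library.

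Cells were also grouped by their thinned TH count (0, 1, 2 to 4, 5 or more). Mean DBH in sensitive cells was 0.663, 1.06 and 1.31 UMIs per cell over the first 3 groups. In intermediate resistant cells mean DBH was 2.33, 2.90, 3.62 and 4.73 along the groups. In fully resistant cells it was 0.981, 2.23, 3.18 and 5.23, and mean DDC was 0.975, 1.62, 1.95 and 2.38. Cells without TH held more DBH in the intermediate than in the fully resistant library. Mean GCH1 of fully resistant cells was 0.108, 0.104, 0.112 and 0.107, nearly the same in every group, and mean GCHFR was 0.463, 0.498, 0.490 and 0.910.

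**Figure D5:**
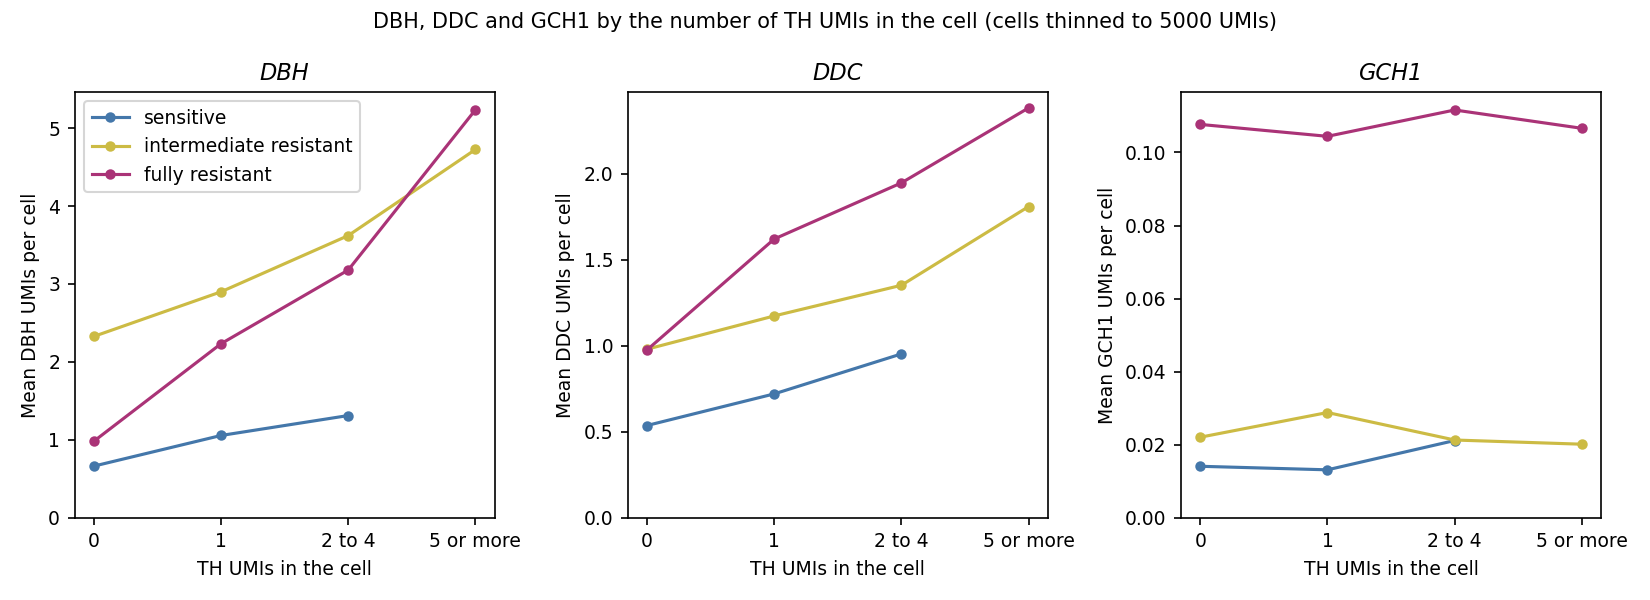
Mean thinned UMIs per cell of DBH, DDC and GCH1 in cells grouped by their thinned TH count (0, 1, 2 to 4, 5 or more; 5000 UMIs per cell), 1 line per library; no sensitive cell reaches the last group. DBH climbs with TH in every library, from 0.981 to 5.23 in fully resistant cells, and GCH1 stays level in fully resistant cells.

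By correlation over the cells of a library, among genes found in at least 10% of cells, the 3 genes most like TH in fully resistant cells were IGF2 (0.57), DBH (0.54) and DLK1 (0.49), against a 99th percentile of 0.13 over 4586 genes. In intermediate resistant cells they were IGF2 (0.28), DBH (0.27) and DLK1 (0.25), and in sensitive cells DLK1 (0.19), DBH (0.16) and IGF2 (0.13). The same 3 genes thus came first in each library. DBH was most like IGF2 (0.58), DLK1 (0.58) and TH (0.54) in fully resistant cells, and like DLK1 (0.33), IGF2 (0.25) and CHGA (0.23) in sensitive cells. NEFM, a neurofilament gene, had the lowest value with TH, DDC and DBH in fully resistant cells, at -0.27, -0.29 and -0.27. GCHFR was most like CHGA (0.24), the granin stored with catecholamines, in fully resistant cells. EEF1A1 (0.22) and GNB2L1 (0.20) followed closely, and RANBP1 had the lowest value with GCHFR (-0.25). CYB561 in sensitive cells was most like MYCN (0.19) and DLK1 (0.19). For SLC18A2 and SLC6A2 no positive correlation reached 0.10 in the libraries where they were found in enough cells. Cells of a library share its depth and composition, and these values have no test.

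IGF2, an imprinted growth factor gene on chromosome 11, is among the nearest 4 genes on 1 side of TH, so the gene with the highest correlation in both resistant libraries is also a neighbour. Its antisense gene IGF2-AS overlaps it, and their reads may not be told apart. The neighbours were taken among genes of at least 5 CPM in the higher library, ordered by the RefSeq annotation of GRCh38. For intermediate resistant over sensitive cells, the 8 neighbours of TH had a median log2 ratio of 0.86, all 8 above 0. Of these, 3 reached 2-fold, among them IGF2 at 1249.8 CPM in intermediate resistant cells against 456 CPM in sensitive cells. For fully resistant over sensitive cells the median was 0.68, and IGF2 was at 550.3 CPM against 456 CPM. There 2 of the 8 neighbours of TH reached 2-fold, both higher. ASCL2, next to TH, was at 8.09 CPM in fully resistant against 0.158 CPM in sensitive cells, and CD81 at 66.5 CPM against 21.9 CPM. Around SLC6A2 on chromosome 16, all 8 neighbours had lower levels in fully resistant than in sensitive cells, with a median log2 ratio of -1.11, and 4 passed 2-fold, including MMP2 (2.26 CPM against 42.3 CPM) and GNAO1 (5.65 CPM against 33.9 CPM). GCH1, GCHFR, SLC18A2 and CYB561 had neighbours with medians of 0.18, 0.21, -0.18 and 0.08 for fully resistant over sensitive cells. The medians do not show single neighbours that were lower with the gene. HSPA12A, next to SLC18A2, was at 0.151 CPM in fully resistant against 8.22 CPM in sensitive cells, and ACE, next to CYB561, was at 2.39 CPM in fully resistant against 16.7 CPM in sensitive cells. Over the 9 genes called for fully resistant over sensitive cells, 10 of 72 neighbours passed 2-fold in the gene's direction and 1 in the other. Of these 10, 4 lay around SLC6A2. Among all 9800 genes at that level, 6.73% were called higher and 7.33% lower. Whether copy number of these chromosomes differed was not tested.

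Genes around the pathway were read in lists, with the same background shares of calls as above. Of 17 proton pump genes of the vesicle that were measured at 5 CPM, 0 were called in fully resistant over sensitive cells, and of 6 proteins of the 14-3-3 family that bind TH, 0. YWHAH of that family was called lower for intermediate resistant over sensitive cells, at 117 CPM against 238 CPM, and YWHAB was called higher for fully over intermediate resistant cells, at 367 CPM against 158 CPM. Of 7 genes of copper and ascorbate supply, CCS was called higher at 28.6 CPM in fully resistant against 13.3 CPM in sensitive cells, and CYB561D2 lower at 8.77 CPM in fully resistant against 17.9 CPM in sensitive cells.

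Among 15 transcription factors of the noradrenergic lineage, 5 were called lower in fully resistant over sensitive cells. INSM1 was called higher, at 18.4 CPM in fully resistant against 1.24 CPM in sensitive cells. EPAS1 was at 11.7 CPM in fully resistant cells against 126 CPM in sensitive cells, and with the groups in the same order GATA2 was at 85.0 CPM against 459 CPM, HAND1 at 131 CPM against 451 CPM, GATA3 at 111 CPM against 275 CPM and TBX2 at 46.8 CPM against 106 CPM. Of the 14 measured for intermediate resistant over sensitive cells, 0 were called. Of 14 adrenergic and dopamine receptors only ADRA2A and DRD2 reached 5 CPM. ADRA2A, an inhibitory receptor for noradrenaline, was at 2.70 CPM in sensitive, 15.5 CPM in intermediate resistant and 25.5 CPM in fully resistant cells, and was called higher in both against sensitive cells. DRD2, a dopamine receptor, was at 8.72 CPM in sensitive, 3.67 CPM in intermediate resistant and 24.3 CPM in fully resistant cells, lower in intermediate and higher in fully resistant than in sensitive cells. Of 13 other monoamine and acetylcholine genes, 0 of the 2 that reached the level were called.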

How the data were processed

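Single-cell RNA of 3 libraries was measured. The deposited values are UMI counts per gene and barcode, not normalized and not filtered, for 737280 barcodes each. Per the submitters' processing notes, bcl2fastq and Cell Ranger were used with the hg19 build; versions, and whether strand was used in counting, are not given in the sources used here. Cells were barcodes of at least 5000 UMIs, 500 genes and at most 20% mitochondrially encoded UMIs. Doublets were not called, and 1 alternative left out the 5% of cells with most UMIs. Counts were summed over cells and divided by their total (CPM). Levels carry exact Poisson, ratios exact conditional Poisson and shares Clopper-Pearson 95% intervals, which cover counting error only.

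With 1 library per group no test was made. Genes were called by size (5 CPM, 2-fold). Shares, pairs and correlations used cells thinned to 5000 UMIs. All 10 genes were named. Further names came from the 3 genes most and the 1 least correlated with each, and from 4 neighbours on each side. Not all of these are named in the text. Up to 4 list genes of at least 20 CPM with the greatest change were also named. List genes called at lower levels, and the neighbours and similar genes singled out, were chosen after their values were seen. The genes, lists and rules were chosen with earlier results of these data known. Alternatives were other scalings (TMM from edgeR 4.0.16), cell rules, call limits and thinning depths. Calculations used python 3.11.15, numpy 2.4.6, scipy 1.17.1 and pandas 2.3.3. The ratio and thinning steps were tested on simulated data. Promoters and neighbour order came from RefSeq for GRCh38.p14, and overlaps from a GRCh38 gene annotation, while the files use hg19. Coordinates are therefore given only for the printed promoters, on GRCh38.p14. Some genes of the lists are not reported here.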

Additional observations from a re-analysis of the deposited data

How the results depend on the processing

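Of 66 counts of called genes under the alternatives, 65 stayed within 1.5 times the main count. The exception was the number called lower in intermediate resistant over sensitive cells, 2 at a ratio of at least 1.5 against 1, with SLC6A2 added. A level of 20 CPM ended the SLC18A1 calls in all 3 comparisons, and cells of at least 10000 UMIs ended the DDC call for intermediate resistant over sensitive cells. Of 270 log2 ratios, 1 changed sign, that of PNMT for intermediate resistant over sensitive cells, which was too low to be called (-0.02 without the 5% of cells with most UMIs, 0.11 with them). The largest shift was 0.14. The share of all calls that were higher for fully over intermediate resistant cells was 59.4%, and 47.0% with TMM scaling. Shares of cells and correlations depend on thinning depth: 59 of 120 shares and 18 of 36 correlations moved, while 323 of 342 pair ratios did not and 0 reversed. No paired analysis was possible because each state has 1 library and the labels give no replicate numbers. Depth limits PNMT, with 47 to 57 UMIs a library.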
